A study of Mus musculus with 416 samples.

Results

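Single blastomeres of mouse embryos injected with an siRNA against Rif1 (siRif1) were compared in replication state between the 8-cell stage and the morula. All 50 cells in the siRif1 8-cell table and all 45 in the siRif1 morula table were taken, which is 95 of the 299 cells in the series. The 60 control cells of the 8-cell stage and the 44 of the morula, from embryos given a control siRNA (siCont), went through the same calculation and stand beside them. In each 50-kb bin the replicated share, which is the percent of cells with a state there that had replicated it, was centred on the mean of its group over bins. The 8-cell value was then subtracted from the morula value. A positive difference, in percentage points, stands for a bin that relatively more morula cells had replicated and is called earlier here. A negative difference is called later.

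Embryos of both treatments had the genotype (C57BL/6J xCBA) x DBA/2J, and zygotes had been injected with siRNA at 20 µM, 17 to 18 h after hCG. The groups used here were siRif1 8-cell, siRif1 morula, siCont 8-cell and siCont morula. Cells of the 4-cell stage came in at 2 places: siCont 4-cell cells gave a separate timing order, and siRif1 and siCont 4-cell cells gave the earlier shift of bins chosen at the 8-cell stage. Per the labels all embryos had been injected as zygotes, with one siRNA or the other, and the labels do not say which groups shared a session. The data are DNA states, so the level of Rif1 RNA or protein in these cells was not measured here, and neither cell identity nor stage could be checked against marker genes. The labels assign no cell to an embryo, a litter or an injection session. Each group therefore counts as 1 sample, no test over samples was possible, and no p-values are given.

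Rif1 is a chromatin protein that carries protein phosphatase 1 (PP1) to DNA. PP1 removes phosphates that the Dbf4-dependent kinase Cdc7 places on the MCM helicase, and this holds back the firing of origins in regions that replicate late. In most mammalian cells gene-rich DNA replicates early in S phase and gene-poor DNA replicates late, and in mouse embryos this order becomes sharper over the cleavage divisions.

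The 250 bases before the start of 4 genes are given as examples from windows at which timing differed most between the 2 siRif1 stages. They do not describe the sequence of the windows as a whole, which was not read. Gng7 and Rbfox3 lie in the pair of 1-Mb windows that were most strongly earlier in the morula, and Ccdc85a and Cdk14 in the pair that were most strongly later. Capitals mark CG dinucleotides. The sequences are from RefSeq (GRCm38.p6), and all 4 lie on the minus strand. They are chr10:81014926-81015175 for Gng7, chr11:118761042-118761291 for Rbfox3 chr11:28584325-28584574 for Ccdc85a and chr5:5380252-5380501 for Cdk14. Those of Rbfox3 and Ccdc85a lie before a start inside the listed span of the gene.
Gng7: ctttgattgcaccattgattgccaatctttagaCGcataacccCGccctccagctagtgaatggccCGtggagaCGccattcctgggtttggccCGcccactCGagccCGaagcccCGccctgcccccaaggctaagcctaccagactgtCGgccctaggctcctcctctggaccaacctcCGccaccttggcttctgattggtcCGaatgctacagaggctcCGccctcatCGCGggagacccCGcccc
Rbfox3: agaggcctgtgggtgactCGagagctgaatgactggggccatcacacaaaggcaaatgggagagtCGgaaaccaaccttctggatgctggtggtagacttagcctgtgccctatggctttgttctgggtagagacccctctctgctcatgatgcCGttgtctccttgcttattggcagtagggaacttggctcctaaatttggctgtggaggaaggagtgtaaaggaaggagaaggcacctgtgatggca
Ccdc85a: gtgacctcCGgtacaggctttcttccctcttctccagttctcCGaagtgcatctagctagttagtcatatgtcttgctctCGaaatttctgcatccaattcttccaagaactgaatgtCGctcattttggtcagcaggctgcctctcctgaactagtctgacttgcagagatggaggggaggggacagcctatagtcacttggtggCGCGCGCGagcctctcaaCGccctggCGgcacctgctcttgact
Cdk14: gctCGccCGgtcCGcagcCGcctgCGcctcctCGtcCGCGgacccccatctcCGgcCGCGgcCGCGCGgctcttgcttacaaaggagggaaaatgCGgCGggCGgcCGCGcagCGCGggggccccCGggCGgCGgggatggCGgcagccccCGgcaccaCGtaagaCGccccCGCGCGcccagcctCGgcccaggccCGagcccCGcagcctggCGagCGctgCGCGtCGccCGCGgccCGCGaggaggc
These stretches held 15, 3, 10 and 43 CG, so neither direction had CG-rich sequence to itself. Over the 300-base promoters of the RefSeq table, 94.8% held at least 1 CG (the letters CG, which read the same on both strands) and 44% held 10 or more. Among measured genes with an entry, 10 or more CG stood in 69.5% of 2538 genes that were 20 points or more earlier and in 53.3% of 381 genes that were 20 points or more later, beside 62% of all 15615. Both gene groups were called with all cells. The genes of the earlier group lay mostly in gene-dense DNA. Within bins of 20 or more genes per Mb the median was 17 CG for 1861 earlier genes, 2 CG for 63 later genes and 12 CG for all 6787 genes. The gap between earlier and later genes was smaller in each of the sparser classes, but it did not shrink steadily with density. In the same order the medians were 19, 9 and 17 CG at 10 to 19 genes per Mb (116 later genes). They were 19, 15 and 18 CG at 5 to 9 genes (132 later genes), and 25, 13 and 16 CG at 0 to 4 genes (23 earlier and 70 later genes). A 50-kb bin is far wider than a promoter, so these are descriptions of the neighbourhood and not of a regulatory site.

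States were present at 88.9 to 94% of the 49264 autosomal bins in each siRif1 cell, and 46212 bins had at least 10 measured cells in both siRif1 groups. The siRif1 8-cell cells had replicated 11.9 to 66.3% of their measured bins (median 43.2%) and the siRif1 morula cells 24.1 to 90.8% (median 46.8%). A cell count of 25 of 50 gives an exact 95% interval of 35.5 to 64.5%, so a single bin is known only coarsely. Over bins the siRif1 change had an SD of 12.6 points, and binomial counting error alone would give an SD of 9.69 points. These intervals and SDs cover counting error only, and the depth of reads per cell is unknown here.

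A subset of siRif1 8-cell cells stood apart from the rest. Their states switched between replicated and unreplicated along the chromosomes more often than in other cells. More than 1300 switches were seen in 14 of 50 siRif1 8-cell cells (28%), 2 of 45 siRif1 morula cells, 9 of 60 siCont 8-cell cells and 0 of 44 siCont morula cells. The 14 siRif1 8-cell cells were not spread evenly over the cell labels. Apart from cell 001 they all had label numbers from 041 to 063, where others had fewer switches, such as 773 in cell 052. What the label numbers stand for is not stated, so a batch cannot be told apart from other differences between these cells. The median number of switches was 1059.5 in siRif1 8-cell cells and 949 in siRif1 morula cells. The limit of 1300 was chosen after the values were seen. The lead results, and those found to move by over 1.5 times, are given with and without these cells, and the part that a technical difference between cells played was not tested. Such cells were then left out of every group, siCont included, and the control order and timing classes were rebuilt from the remaining siCont cells.

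Fewer cells of the siRif1 morula than of the siRif1 8-cell stage replicated against the control order. An order score was computed for each cell that was 20 to 80% replicated. It is the chance that a replicated bin of that cell ranks earlier in control cells than an unreplicated one, and a cell that replicated bins in random order would score 0.5. In 47 siRif1 8-cell cells the score ran from 0.357 to 0.942 with a median of 0.641, and 11 cells lay below 0.5. In 43 siRif1 morula cells it ran from 0.479 to 0.898 with a median of 0.705, and 1 cell lay below 0.5. The ranges overlapped over most of their length. What differed was the low end, and the quartiles were 0.501 and 0.812 in the 8-cell group against 0.616 and 0.769 in the morula. The 11 siRif1 8-cell cells below 0.5 all had label numbers from 041 to 064.

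The controls had higher medians at both stages, 0.751 in 54 siCont 8-cell cells and 0.838 in 42 siCont morula cells, but the order was built from these same control cells, which raises their scores. With the order of siCont 4-cell cells in its place the medians were 0.621 and 0.681 in siRif1 and 0.718 and 0.755 in siCont. The score of siRif1 8-cell cells went down as the number of switches went up (Spearman's rho −0.538 over 47 cells of 1 group, a description), whereas rho was 0.040 over the 43 siRif1 morula cells. Without the cells of over 1300 switches the siRif1 medians were 0.690 at the 8-cell stage and 0.706 in the morula, and 4 and 1 cells lay below 0.5. The difference between stages in the median was 0.0648 with all cells and 0.0160 without them. The control order was rebuilt for the values without those cells, so the 4 are counted against another order than the 11 found with all cells.

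Pairs of cells whose percent replicated differed by at most 5 points were also more alike in the morula when all cells were used. The median correlation of their states was 0.0647 over 223 siRif1 8-cell pairs and 0.119 over 161 siRif1 morula pairs, and the share of pairs below 0 was 21.5% and 4.97%. In controls it was 0.139 and 0.264. When cells of over 1300 switches were left out, the siRif1 medians were 0.110 over 111 pairs and 0.110 over 146 pairs, so the difference between the siRif1 stages was not seen among the other cells, and the controls stood at 0.168 and 0.264. Pairs share cells and are not independent, so these values are descriptions.

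**Figure D1:**
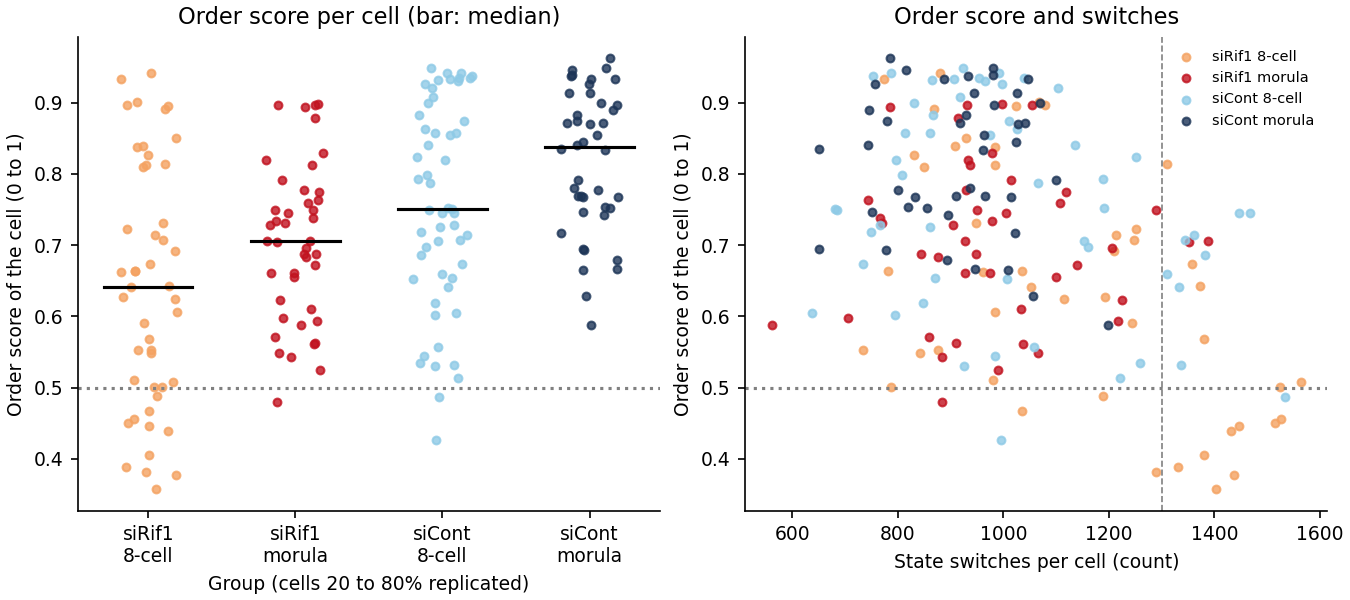
Order score of each cell between 20 and 80% replicated, by group with the median as a bar (left), and against the number of state switches of the cell (right, dashed line at 1300 switches, dotted line at the score of a random order, 0.5). In siRif1 8-cell cells 11 scores lie below 0.5, and 8 of these cells have over 1300 switches; 1 siRif1 morula cell lies below 0.5.

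The order of S phase was visible in siRif1 cells grouped by their own progress. Bins were ranked by their mean centred share in siCont 8-cell and morula cells and divided into 5 equal classes, from latest to earliest. Among siRif1 8-cell cells that were 20 to 40% replicated (17 cells), the median cell had replicated 37.7% of the earliest class and 23.2% of the latest, and 7 cells had replicated more of the latest class than of the earliest. Among siRif1 morula cells of the same progress (16 cells) the medians were 64% and 5.97%, and no cell had replicated more of the latest class. Among cells of at most 1300 switches, the medians were 54.8 and 4.40% in 10 siRif1 8-cell cells, 2 of which had replicated more of the latest class, and 66.6 and 5.72% in 15 siRif1 morula cells. Much of the late DNA replicated at this point of S phase was thus in the cells of many switches, while the earliest class stayed lower in the 8-cell group with and without them. In control cells of 20 to 40% the medians were 65 and 8.23% at the 8-cell stage and 67.4 and 2.63% in the morula. Between 40 and 60% replicated, the median distance between the earliest and the latest class was 36.6 points in 21 siRif1 8-cell cells and 54.8 points in 13 siRif1 morula cells. Between 60 and 80% the direction turned, with 37 and 23.7 points. There the latest class stood at a median of 42.5% in 9 siRif1 8-cell cells and 50.4% in 14 siRif1 morula cells, against 30.2 and 12.9% in the controls.

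Averaged over all cells, early and late classes lay further apart in the siRif1 morula. From the latest to the earliest class, the mean replicated share was 26.5, 36.4, 44.3, 50.6 and 57.2% in siRif1 8-cell cells and 27.2, 39.5, 51.4, 61.5 and 70.2% in siRif1 morula cells. The early to late distance went from 30.7 to 42.9 points, a change of 12.2 points. It was wider on 19 of 19 autosomes, by 3.63 points on chromosome 19 up to 20.9 points on chromosome 11, and the SD of 4.52 points over autosomes is a spread over the genome and not an error over embryos. In controls the distance went from 53.3 to 68.5 points. The classes were built from these same control cells, so the control distances are inflated by that choice.

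With classes taken instead from siCont 4-cell cells, which are in none of the 4 groups, the distance went from 28.8 to 36.2 points in siRif1 (a change of 7.33 points, wider on 18 of 19 autosomes) and from 44.6 to 52.8 points in siCont (8.27 points). The 2 changes differed by −0.943 points, within the SD of 4.34 points over autosomes; this difference was not tested over embryos. It turned to 9.42 points with cells paired on percent replicated, 8.74 points on percentile ranks and 6.43 points with shares scaled to a common SD, each beyond that SD, so its sign rested on the processing.

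Most of the widening was seen only with the cells of over 1300 switches. Without them the distance was 41.4 points at the 8-cell stage and 42.8 points in the morula, a change of 1.41 points. With limits of 1200 and 1400 switches it was −0.0677 and 4.48 points. The SD of the share over bins went from 14.8 to 17.4 points with all cells, and from 18.2 to 17.3 points without the cells of over 1300 switches. In controls without such cells the distance still went from 56.4 to 68.5 points. siRif1 8-cell and morula cells within 5 points of percent replicated were also paired, each cell used at most once. This gave 36 pairs and left the other siRif1 cells out, and the change was 18.5 points.

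Gene density separated the bins further. In bins with 20 or more protein-coding genes in the 1 Mb around them, the mean share was 41.7% in siRif1 8-cell cells and 59.6% in siRif1 morula cells, a centred change of 10.9 points against 6.64 points in controls. At the 8-cell stage such gene-dense bins were replicated in fewer siRif1 cells than bins of 5 to 9 genes (49.6%) or 10 to 19 genes (50.3%). In the siRif1 morula the same classes stood at 56.1 and 61.6%, so the densest DNA lay between them. Bins with no gene in that span stood at 29.1 and 29.6%, a centred change of −6.41 points against −9.80 points in controls.

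The gene-dense change was smaller without the cells of over 1300 switches, at 6.34 points (4.35 points in controls), and the gene-free change was −0.224 points (−8.55 points in controls). Within the earliest class, bins with 20 or more genes went from 50.4 to 71.2% in siRif1 (13.8 points centred, 6.75 points in controls). Bins of the same class with at most 4 genes went from 60.6 to 68.2% (0.590 points, 5.68 points in controls). Without the cells of over 1300 switches these changes were 8.08 and −2.52 points (3.71 and 5.05 points in controls), with shares of 55.9 to 71.4% for the gene-dense bins and 64.1 to 68.9% for the gene-poor ones. With and without those cells, gene-dense early DNA trailed gene-poor early DNA in the siRif1 8-cell group and led it in the siRif1 morula.

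**Figure D2:**
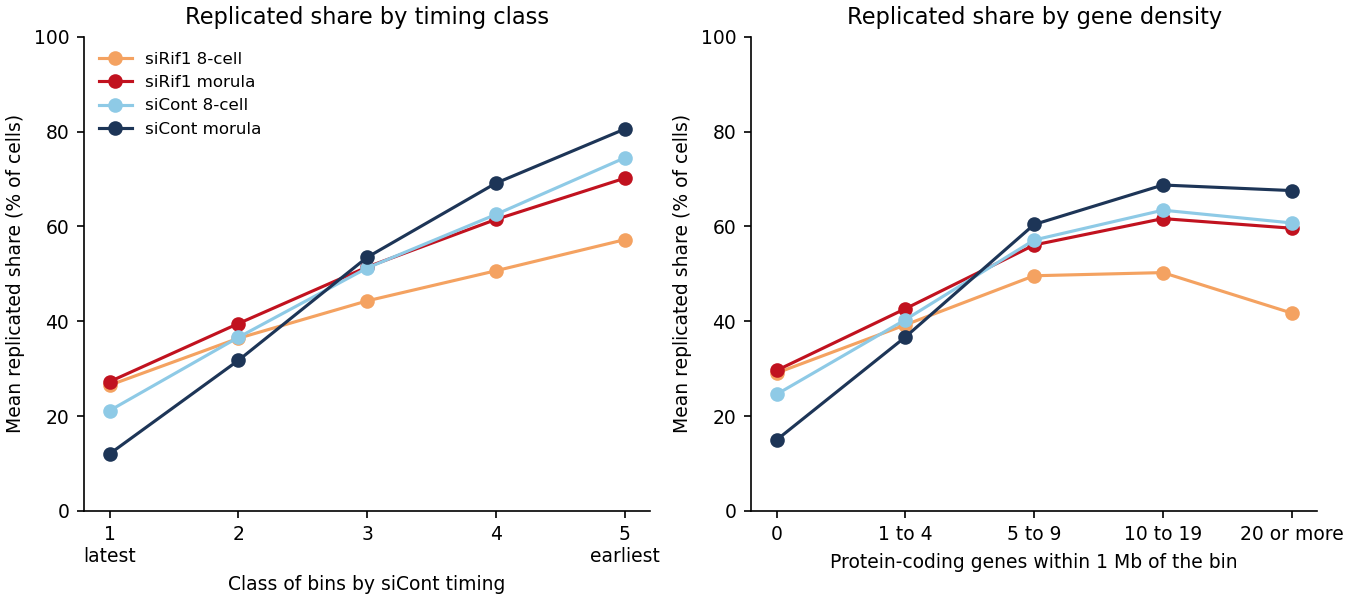
Mean replicated share (percent of measured cells) by class of control timing (left) and by number of protein-coding genes in the 1 Mb around the bin (right), 1 line per group. The siRif1 8-cell line is flattest by timing class and is the only one that drops markedly at 20 or more genes, to 41.7%; the siRif1 morula line reaches 59.6% there.

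Per bin, large differences between the siRif1 stages were few. A difference of 30 points or more was reached by 570 bins that were earlier in the morula, which is 1.23% of bins, and by 167 that were later (0.361%). The same rule took 0.369% and 0.132% of bins in controls. At 20 points it took 3162 bins that were earlier (6.84%) and 2114 that were later (4.57%), against 3.76% and 3.36% in controls. When cells of over 1300 switches were left out, the siRif1 shares were 0.844 and 0.701% at 30 points and 5.30 and 5.54% at 20 points, so the excess of earlier over later bins at 20 points was not seen there. The earlier bins lay in blocks: 99 runs of 500 kb or more held 62.9% of them, and the longest spanned 3650 kb. Later bins were more scattered, with 64 such runs holding 44.8% of them and a longest run of 2000 kb. Neighbouring bins of a cell mostly share a state, with a median run of 1250 kb in siRif1 8-cell and 1300 kb in siRif1 morula cells. Called bins are therefore not independent of their neighbours, and these runs are a description. The bins 20 points or more earlier had a mean of 19.3 genes in the 1 Mb around them and 54.5% held a gene midpoint, against 8.41 genes and 29.8% over all bins. The later bins had 4.45 genes and 18.3%.

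Windows of 1 Mb give the loci where the difference was largest. They were chosen by their mean siRif1 change, so that change is a description. The choice also favours windows where a siRif1 group is the lowest or highest of the 4 groups. The values of controls were not used in the choice. Counts of cells are not centred. The mean share over bins was 42.9% in siRif1 8-cell cells and 49.9% in siRif1 morula cells, and 49.2 and 49.4% in the controls. A cell was counted when over 50% of its measured bins in the window were replicated.

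The largest change lay at 81 to 82 Mb of chromosome 10, a window overlapped by 51 genes. They include Nfic, a transcription factor of the nuclear factor I family, and, at the edge of the window only, Gng7, a G protein gamma subunit. Most of it was replicated in 7 of 49 siRif1 8-cell cells (14.3%, interval 5.94 to 27.2%) and in 32 of 45 siRif1 morula cells (71.1%, 55.7 to 83.6%). Control cells stood at 39 of 60 (65%) and 33 of 44 (75%). The siRif1 8-cell group was low and the other 3 groups were close together. The mean change was 43.8 points in siRif1 and 9.06 points in siCont, and 39.4 points in siRif1 without the cells of over 1300 switches. Only 12 of the 20 bins of this window were measured.

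The window at 118 to 119 Mb of chromosome 11 holds Rbfox3, which encodes the neuronal splicing factor NeuN, Dnah17, an axonemal dynein, and Cyth1, an exchange factor for ARF GTPases. It was replicated in 1 of 49 siRif1 8-cell cells (2.04%, 0.0517 to 10.9%) and in 24 of 45 siRif1 morula cells (53.3%, 37.9 to 68.3%). Controls stood at 22 of 60 (36.7%) and 22 of 44 (50%). The siRif1 8-cell group was low, and the other 3 groups had overlapping intervals. The change was 38.3 points in siRif1 (38 points without the cells of over 1300 switches) and 12.7 points in siCont.

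Near the end of chromosome 2 (165 to 166 Mb), the window of the transcriptional cofactor Eya2, the cadherin Cdh22 and the chromatin reader Zmynd8 went from 11 of 50 siRif1 cells (22%, 11.5 to 36%) to 27 of 45 (60%, 44.3 to 74.3%). Controls went from 29 of 60 to 30 of 44. On chromosome 5 (139 to 140 Mb), the window of Prkar1b, a regulatory subunit of protein kinase A, and Elfn1, a synaptic leucine-rich repeat protein, went from 16 of 50 (32%) to 34 of 45 (75.6%) in siRif1 and from 36 of 60 to 32 of 44 in controls. On chromosome 11 (102 to 103 Mb), the window of the splicing factor Eftud2 and the histone deacetylase Hdac5 went from 20 of 49 (40.8%) to 34 of 45 (75.6%) in siRif1 and from 43 of 60 to 39 of 44 in controls. The siRif1 changes of these 3 windows were 35.2, 34.4 and 32.5 points, and 33.7, 24.4 and 28.3 points without the cells of over 1300 switches. In each of them the siRif1 8-cell group was the lowest of the 4 groups, which the choice of windows favours.

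The windows that were most strongly later in the siRif1 morula held 1 to 9 gene midpoints each. At 28 to 29 Mb of chromosome 11, with Ccdc85a, a coiled-coil gene, and Efemp1, a matrix protein of the fibulin family, most of the window was replicated in 23 of 49 siRif1 8-cell cells (46.9%, 32.5 to 61.7%) and 6 of 45 siRif1 morula cells (13.3%, 5.05 to 26.8%). Controls stood at 18 of 60 (30%) and 5 of 44 (11.4%). The change was −36.2 points in siRif1 (−35 points without the cells of over 1300 switches) and −19.9 points in siCont. Both treatments thus had a low share in the morula, and the siRif1 8-cell group was the high one.

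Chromosome 5 held 3 of the 5 later windows within its first 13 Mb. At 5 to 6 Mb, with the cyclin-dependent kinase Cdk14, 34 of 50 siRif1 8-cell cells (68%, 53.3 to 80.5%) and 14 of 45 siRif1 morula cells (31.1%, 18.2 to 46.6%) had replicated the window, against 33 of 60 and 18 of 44 controls. At 12 to 13 Mb, with Sema3d, a secreted guidance factor, the counts were 30 of 50 and 14 of 45, against 22 of 60 and 11 of 44. The window at 8 to 9 Mb holds Adam22, a synaptic membrane protein, and Abcb1a, which encodes the drug transporter P-glycoprotein. There the counts were 25 of 50 (50%) and 9 of 45 (20%, 9.58 to 34.6%), against 32 of 60 and 21 of 44.

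This last window differed in kind from the other 4. At the 8-cell stage siRif1 and siCont lay 0.0267 points apart there after centring, and in the morula the shift of siRif1 from siCont was −23.7 points. In the Ccdc85a, Cdk14, Immp2l and Sema3d windows siRif1 was 13.9 to 25.8 points earlier than siCont at the 8-cell stage, and −4.18 to 6.23 points from it in the morula. The fifth window, at 41 to 42 Mb of chromosome 12, holds Immp2l, a mitochondrial inner membrane peptidase gene, and went from 31 of 50 to 15 of 45 siRif1 cells. The changes of the 4 windows from Cdk14 to Sema3d were −32.3, −30.3, −29.5 and −27.7 points in the order of size, and −41.5, −23.9, −39.3 and −23.1 points without the cells of over 1300 switches.

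**Figure D3:**
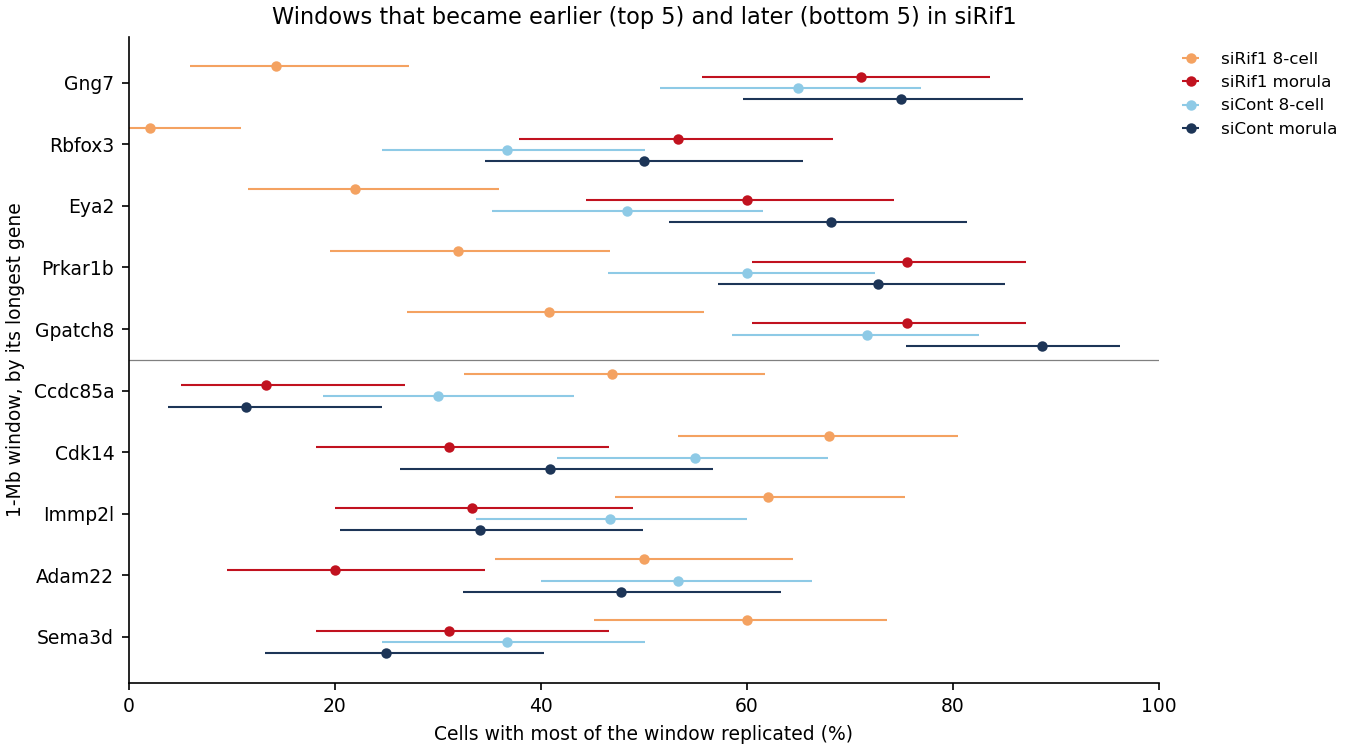
Percent of cells with most of each 1-Mb window replicated, with exact 95% intervals (counting error only), for the 5 windows of highest and the 5 of lowest siRif1 change, named by their longest gene. In the upper windows the siRif1 8-cell point is the lowest of the 4 groups. In the lower windows it is the highest, except at Adam22, where the siRif1 morula point (20%) is the one that stands apart. The windows were chosen by the siRif1 change, which favours an extreme siRif1 point.

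**Figure D4:**
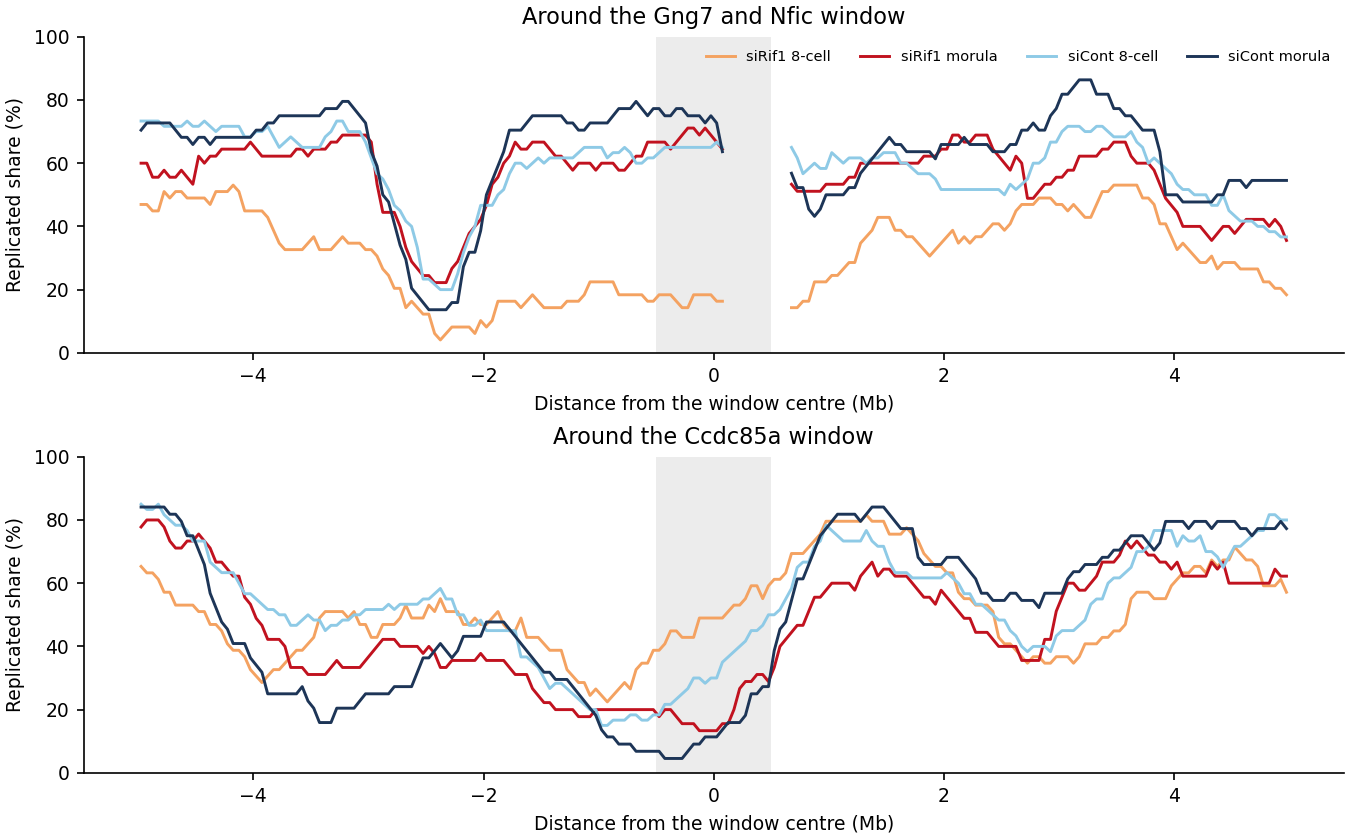
Replicated share per 50-kb bin (percent of measured cells) against distance from the centre of the Gng7 window (top) and of the Ccdc85a window (bottom), 1 line per group, with the 1-Mb window shaded. Around Gng7 the siRif1 8-cell line runs below the other 3 groups in every plotted bin. The siRif1 morula line lies near the controls in the window and below both of them over stretches on either side, such as 48.9% against 60 and 72.7% at 2.775 Mb; lines break where no bin was used.

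Bins in which siRif1 differed from controls at the 8-cell stage were also read in the morula. A total of 2935 bins (6.37%) were 20 points or more later in siRif1 than in siCont at the 8-cell stage, with a median shift of −24.7 points. Their median share was 38.8% in siRif1 and 71.7% in siCont. In the morula the same bins stood at 66.7 and 77.3%, and their median shift was −9.13 points (quartiles −15.5 and −4.48). Still 20 points or more later were 335 of them, which is 11.4% of these bins and 13.8% of the 2428 bins that were so in the morula, against 5.27% of all bins. The shift in the morula was negative in 88.1% of them, against 50.5% of all bins, and its median was negative on 19 of 19 autosomes. Within 10 points of controls were 49.3% of them, against 50.1% of all bins.

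These bins were chosen by the 8-cell shift, so their 8-cell value and the size of the step away from it are partly set by the choice; the morula values come from other cells. Of the delayed bins 60.5% fell in the earliest control class, and that class as a whole had a mean shift of −11 points at the 8-cell stage and −10.9 points in the morula. At the 4-cell stage the median shift of the delayed bins had been −5.36 points.

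In the other direction, 1825 bins (3.96%) were 20 points or more earlier in siRif1 than in siCont at the 8-cell stage. Their median share was 40.8% in siRif1 8-cell cells and 33.3% in siRif1 morula cells, against 23.3 and 15.9% in controls. The median shift went from 22.9 to 12.5 points (quartiles 5.92 and 18.8 in the morula). Still 20 points or more earlier were 343 (18.8% of them and 11.6% of the 2954 such bins of the morula), against 6.41% of all bins, and 35.1% lay within 10 points of controls. The shift was positive in 89.5% of them. Of these bins 61% fell in the latest class, whose mean shift was 11.6 points at the 8-cell stage and 14.7 points in the morula. Among cells of at most 1300 switches, with bins chosen anew in those cells, the median shifts in the morula were −8.73 and 6.33 points for delayed and advanced bins.

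Delayed and advanced bins were also chosen anew on the scale of percentile ranks, which sets aside how wide the shares of a group spread. In the morula the bins chosen this way had median shifts of −2.21 points (delayed) and 2.23 points (advanced). With shares scaled to a common SD, and bins chosen anew on that scale, the medians were −2.27 and 1.52 points. Bins chosen by rank thus had median ranks close to those of controls in the morula. Bins chosen in percent of cells stayed nearer to the middle than in controls. These are different sets of bins, and the rank shift of the bins chosen in percent was not computed. Shifts at the 8-cell stage and in the morula correlated across bins (Pearson's r 0.496, Spearman's rho 0.524 over 46069 bins, groups that share no cells; neighbouring bins are not independent).

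Single loci spread widely around these medians. The 5 windows that trailed controls most at the 8-cell stage were Gng7 on chromosome 10 and windows on chromosomes 17, 7 and 2. At Gng7 the shift went from −41.5 to −6.77 points. At 25 to 26 Mb of chromosome 17, with Lmf1, a lipase maturation factor, and the ciliary transport gene Ift140, it went from −37.2 to −22.2 points, and the counts were 9 of 50 siRif1 8-cell cells and 24 of 45 siRif1 morula cells against 34 of 44 siCont morula cells. At 26 to 27 Mb of chromosome 2, with the receptor gene Notch1, it went from −31.1 to −23 points (14 of 50 and 27 of 45 siRif1 cells, 37 of 44 siCont morula cells). At 27 to 28 Mb of chromosome 17, with the glutamate receptor gene Grm4, it went from −35.5 to −17.6 points. At 30 to 31 Mb of chromosome 7, with Zfp568 and Nphs1 (the slit diaphragm protein nephrin), it went from −32 to −18.7 points; its siRif1 change was 25.3 points, and 16.5 points without the cells of many switches. All 5 were replicated in more siRif1 cells in the morula, and all but the Gng7 window stayed at least 17.6 points behind controls.

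Of the 5 windows that were most ahead of controls at the 8-cell stage, the one of Lrp1b, a large LDL receptor relative, hardly differed between stages relative to controls. Its shift was 24.9 points at the 8-cell stage and 24.3 points in the morula, with 16 of 45 siRif1 morula cells (35.6%, 21.9 to 51.2%) against 4 of 44 siCont morula cells (9.09%, 2.53 to 21.7%). The window of Adgrb3, an adhesion G protein-coupled receptor, went from 32.1 to 20.2 points, with 21 of 45 siRif1 morula cells against 8 of 44 siCont morula cells. Rims1, a scaffold protein of the presynaptic active zone, went from 30.4 to 13.6 points. The gene-free window at 42 to 43 Mb of chromosome 12 went from 27.5 to 20.4 points, and the Sema3d window from 25.8 to 6.23 points. Without the cells of over 1300 switches the siRif1 change of the gene-free window was −6.17 points in place of −16.6 points.

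Across the whole profile, siRif1 morula cells resembled controls more than siRif1 8-cell cells did. Pearson's r over bins was 0.782 between siRif1 and siCont at the 8-cell stage and 0.890 in the morula. When cells of over 1300 switches were left out, these were 0.836 and 0.887. Between the stages it was 0.703 in siRif1 (0.762 without those cells) and 0.909 in siCont. The changes of siRif1 and siCont, which share no cells, correlated with r 0.438 (rho 0.437). By chromosome, the r between siRif1 stages ran from 0.554 on chromosome 11 to 0.830 on chromosome 3.

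Chromosomes moved unequally. Chromosome 11 was earlier in the siRif1 morula by a mean of 6.62 points (1.66 points in siCont), and 16.9% of its bins were 20 points or more earlier. Chromosome 7 followed with 4.32 points (3.51 points in siCont). Chromosome 6 was later by a mean of −5.19 points against 1.12 points in siCont, and 11.3% of its bins were 20 points or more later. Among cells of at most 1300 switches, the siRif1 means were 4.30 points on chromosome 11, 3.11 points on chromosome 7 and −5.81 points on chromosome 6. Bins within 10 Mb of the chromosome end away from the centromere were earlier by 6.94 points in siRif1 and 6.63 points in siCont, and bins within 10 Mb of the centromere side were later by −3.81 and −2.48 points.

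Genes were read at the bin of their midpoint. Of 19575 measured protein-coding genes, 12814 (65.5%) had a positive siRif1 change, with a median of 5.93 points against 5.27 points in controls. A change of 20 points or more earlier was reached by 3125 genes (16%), and of 20 points or more later by 479 (2.45%); in controls these shares were 5.79% and 0.982%. Without the cells of over 1300 switches the median was 2.68 points. The shares of genes past 20 points were not computed without those cells. Over all bins, the shares 20 points or more earlier and later were 5.30 and 5.54% without them, so the excess of earlier genes may rest on those cells. Each list of genes is read against the values of all genes. Members of a list often share a bin or neighbour each other, and were not separate measurements there.

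Lineage genes of the preimplantation embryo gave list medians between 5.27 and 10.04 points. When cells of over 1300 switches were left out, the medians were 0.108 points for pluripotency, 2.97 points for trophectoderm and 8.23 points for primitive endoderm genes. Among 29 pluripotency genes 18 had a positive change, and the median was 5.27 points (5.27 points in controls). Of the 29, 1 was 20 points or more earlier (3.45%, against 16% of all genes) and 0 later (2.45% of all genes). That gene was Pecam1, an adhesion molecule of the inner cell mass, replicated in 21 of 49 siRif1 8-cell cells (42.9%, 28.8 to 57.8%) and 38 of 45 siRif1 morula cells (84.4%, 70.5 to 93.5%), with 49 of 60 and 38 of 44 controls. Its change was 34.6 points, and 22.1 points without the cells of many switches. At the other end, the neighbours Dppa2 and Dppa4, activators of early embryonic genes, had changes of −19.2 and −17.2 points against 5.05 and 1.96 points in controls. Dppa2 was replicated in 25 of 50 and 17 of 45 siRif1 cells and in 34 of 60 and 26 of 42 control cells, so its siRif1 share was lower in the morula while the control share was not. Of the core factors, Pou5f1 had a change of 14.8 points, Sox2 of −0.955 points and Nanog of −6.73 points.

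Of 25 trophectoderm genes 18 had a positive change (median 7.04 points, 4.21 points in controls). Of the 25, 1 was 20 points or more earlier (4%, against 16% of all genes) and 0 later. The transcription factor Tfap2c went from 17 of 50 to 31 of 45 siRif1 cells, and its change of 27.9 points stood beside 22.5 points in controls. The T-box factor Eomes had 19.7 points. Cdx2, which is needed for trophectoderm, had 12.2 points against 25.7 points in controls. Fgfr2, a receptor of FGF signals, had −11.8 points (−18.9 points without the cells of many switches) against 15 points. Of 16 primitive endoderm genes 12 had a positive change (median 10.04 points, 2.92 points in controls). Of the 16, 3 were 20 points or more earlier (18.8%, against 16% of all genes) and 2 later (12.5%, against 2.45%). The neighbouring basement membrane genes Col4a1 (20 of 50 to 33 of 45 cells, 26.4 points) and Col4a2 (24.8 points) and the laminin gene Lamc1 (23 points) were the earlier ones. The transcription factor Sox17 went from 29 of 50 to 18 of 45 cells (−25 points, −10.3 points in controls), and the endocytic receptor Cubn had −20.5 points.

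Genes of the replication machinery gave 39 positive of 54 (median 7.16 points, 4.43 points in controls). Their siRif1 median was 1.32 points without the cells of many switches. Of the 54 genes, 6 were 20 points or more earlier (11.1%, against 16% of all genes) and 3 later (5.56%, against 2.45%). Cdt1, which loads the MCM helicase on origins, went from 13 of 50 siRif1 cells (26%, 14.6 to 40.3%) to 30 of 45 (66.7%, 51 to 80%), with 37 of 60 and 33 of 44 controls. Its partner Cdc6 went from 18 of 49 to 34 of 45 siRif1 cells, with 47 of 60 and 35 of 44 controls. Pola2 and Pold1, subunits of DNA polymerases, had 31.5 and 26.2 points. On the later side, Dbf4, the activator of the kinase that PP1 opposes, went from 24 of 50 (48%, 33.7 to 62.6%) to 12 of 45 (26.7%, 14.6 to 41.9%) siRif1 cells, with 30 of 60 and 20 of 44 controls. It lies in the Adam22 window. The primase subunit Prim2 had −25.8 points and the helicase subunit Mcm3 −24.5 points. Of the 4 genes of Rif1 and the PP1 catalytic subunits, Ppp1cc went from 23 of 50 to 36 of 45 siRif1 cells (27 points, −2.91 points in controls; 16.2 points without the cells of over 1300 switches). Ppp1ca had 20.9 points (9.21 points without those cells) and Ppp1cb 9.71 points (5 points). The median of the 4 was 15.3 points, and 7.11 points without those cells. The Rif1 locus itself, at chr2:52072815-52126769, was replicated in 28 of 50 and 26 of 45 siRif1 cells and in 40 of 60 and 28 of 44 control cells, a change of −5.18 points against −3.22 points. These values describe when the genes replicated and not how they were expressed.

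Ribosomal protein genes, which are short and lie in gene-dense DNA, had 58 positive of 82 (median 8.73 points, 7.09 points in controls; 4.01 points in siRif1 without the cells of many switches), and 22 were 20 points or more earlier (26.8% against the background of 16%) and 3 later. Rps15 went from 8 of 49 (16.3%, 7.32 to 29.7%) to 26 of 45 (57.8%, 42.2 to 72.3%) siRif1 cells, with 37 of 60 and 32 of 44 controls. Rps10 went from 12 of 50 to 29 of 45, with 43 of 60 and 33 of 44 controls. Rpl24 went the other way, from 34 of 50 to 21 of 45, with 36 of 60 and 32 of 42 controls. Zinc finger genes of the Zfp series were near the background, with 242 positive of 351, a median of 5.27 points (5.65 points in controls; 1.26 points in siRif1 without those cells), 61 of them 20 points or more earlier (17.4%) and 5 later. Zfp334 went from 8 of 50 to 28 of 45 cells (39.3 points, 24.7 points in controls). Zfp558 had −24.7 points against 13 points in controls.

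Late-replicating families gave negative medians. Of 53 long neuronal and fragile-site genes 39 had a negative change, with a median of −5.62 points against −12.8 points in controls. Of the 53, 6 were 20 points or more later (11.3%, against 2.45% of all genes) and 1 earlier (1.89%, against 16%). When cells of over 1300 switches were left out, the median was 0.677 points, so its sign turned. Immp2l went from 32 of 50 (64%) to 16 of 45 (35.6%) siRif1 cells, and Rims1 from 29 of 50 (58%) to 16 of 45 (35.6%) with 16 of 60 and 8 of 44 controls. Wwox, a gene at a known fragile site, went from 16 of 50 to 27 of 45 (21 points). Auts2 had 11.9 points against −17.9 points in controls (1.77 points without those cells). Of 1085 olfactory receptor genes, read over 562 bins, 629 had a negative change. The median was −1.42 points (0.495 points in controls, −0.809 points in siRif1 without those cells). Of the 1085, 20 were 20 points or more earlier (1.84%, against 16% of all genes) and 38 later (3.50%, against 2.45%). On percentile ranks that median was 0.991 points, so its sign depended on the scale.

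Imprinted genes had 27 positive of 41 and a median of 3.60 points (3.90 points in controls, −0.0986 points in siRif1 without the cells of over 1300 switches). Of the 41, 5 were 20 points or more earlier (12.2%, against 16% of all genes) and 0 later. Blcap went from 18 of 50 to 34 of 45 siRif1 cells (32.6 points, 17.2 points in controls), and the amino acid transporter gene Slc38a4 from 19 of 50 to 32 of 45. Mest and its neighbour Copg2 had −15.8 and −11.8 points against 16.2 and 17.9 points in controls. Mest was thus replicated in 40 of 50 (80%) siRif1 8-cell cells and 32 of 45 (71.1%) siRif1 morula cells, while controls stood at 39 of 60 (65%) and 35 of 43 (81.4%).

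Hox genes, the homeodomain factors that pattern the body axis, lie in 4 clusters that behaved unlike each other. The Hoxa cluster on chromosome 6 (11 genes in 3 bins) had a median change of −28.1 points against 2.91 points in controls. Hoxa10 was replicated in 35 of 50 siRif1 8-cell cells (70%, 55.4 to 82.1%) and 22 of 45 siRif1 morula cells (48.9%, 33.7 to 64.2%), against 40 of 60 and 30 of 43 controls. Its change was −38.6 points without the cells of over 1300 switches. The Hoxc cluster on chromosome 15 (9 genes) had −11.2 points against 3.60 points in controls. The Hoxb cluster on chromosome 11 (10 genes) had 15.4 points against 9.28 points, and Hoxb3 went from 26 of 49 to 34 of 45 siRif1 cells (15.5 points, 4.23 points without those cells). The Hoxd cluster on chromosome 2 (9 genes) had 1.04 points against −13.8 points. Over all 39 genes 21 had a negative change, the median was −11 points (−21.4 points without those cells), and the 11 that were 20 points or more later were the Hoxa genes.

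Histone genes in the chromosome 13 cluster (54 genes in 11 bins) had a median of −9.40 points in siRif1 and 10.7 points in controls, and 49 of the 54 were negative. H1f4, a linker histone gene of this cluster (−14.3 points, and −21.5 points without the cells of many switches), was replicated in 27 of 50 and 21 of 45 siRif1 cells and in 27 of 60 and 27 of 44 control cells. The share went down in siRif1 and up in siCont. The 10 histone genes of chromosome 3 had 5.93 points against 9.36 points. Over all 68 histone genes 50 had a negative change and the median was −5.29 points (−10.4 points without the cells of over 1300 switches). Of the 68, 1 was 20 points or more earlier (1.47%, against 16% of all genes) and 0 later.

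Genes of the major histocompatibility complex (MHC), which encode antigen-presenting proteins on chromosome 17, had 33 positive of 35 (28 bins, median 15.7 points against 9.36 points in controls; 7.65 points without the cells of over 1300 switches). Only 3 reached 20 points earlier (8.57%, against 16% of all genes) and 0 later. H2-T22 went from 15 of 50 to 27 of 45 siRif1 cells (23 points, and 11.9 points without those cells) and H2-Eb1 from 11 of 50 to 22 of 45, whereas H2-M2 stood at 8 of 50 and 8 of 45. The clustered protocadherins of chromosome 18, cell surface adhesion genes, gave 36 positive of 57 in 11 bins, a median of 4.38 points against −1.31 points in controls, and none past 20 points. Their median was 1.77 points without the cells of many switches, and −5.47 points with cells paired on percent replicated.

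**Figure D5:**
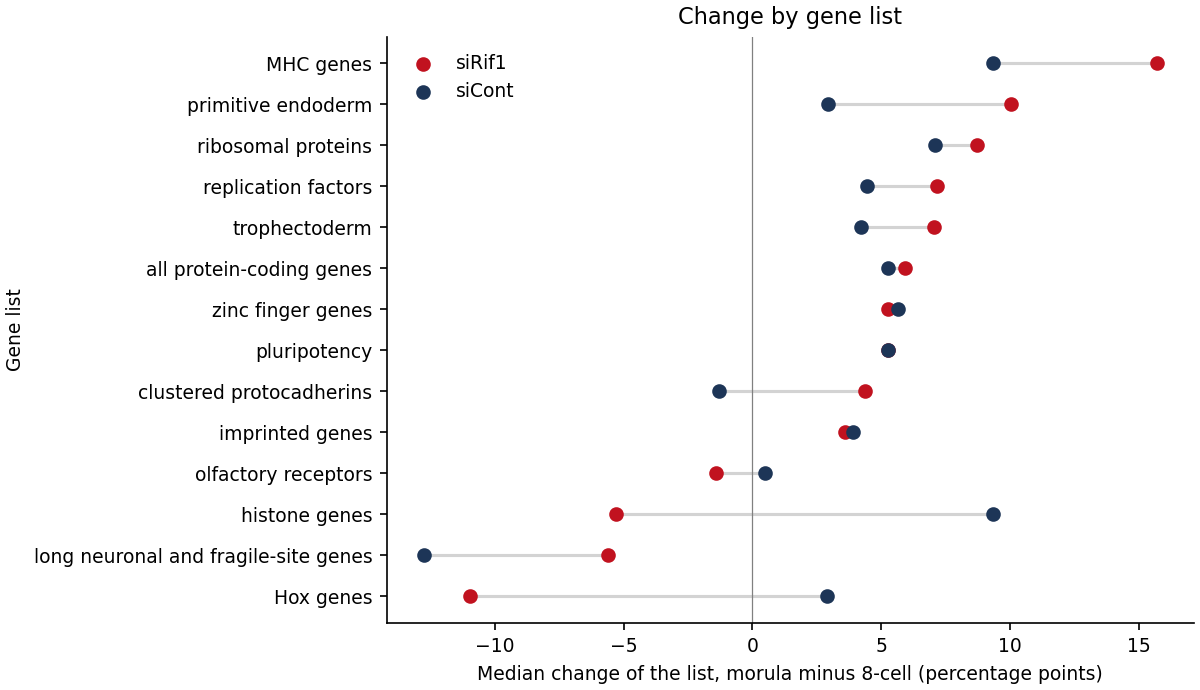
Median change from the 8-cell stage to the morula (percentage points) of the genes in each list, in siRif1 and siCont cells, without error bars since each group is 1 sample. The siRif1 medians run from −11 points (Hox genes) to 15.7 points (MHC genes), with all protein-coding genes at 5.93 points in siRif1 and 5.27 points in siCont; Hox and histone genes lie below 0 in siRif1 and above 0 in siCont, and MHC genes lie highest in siRif1.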

How the data were processed

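Single blastomeres of siRif1 and siCont embryos were assayed for DNA content per 50-kb bin. The authors deposited 1 table per group with a state of 0, 1 or NA for each bin and cell (another kind of value than a count, with no depth), on 19 autosomes. The submitters' processing notes list the build GRCm38, R 4.2.3, Bowtie2 2.5.1, bedtools, Picard and SAMtools; a method for the step from reads to states was not given in the sources used here. The shortest inner run of 1 state was 5 bins (250 kb) in the 4 groups used, so the states had been smoothed or segmented before deposit. Of 416 labelled cells, 299 had a column; the other labelled cells were not analysed here. The tables do not say which value means replicated. The value 1 was taken as replicated, since bins with a gene midpoint had a higher share of 1 (47.1 against 41.3% in siRif1 8-cell cells, 58.5 against 46.3% in siRif1 morula cells).

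From these states the replicated share of each bin, its value centred on the group mean, and the morula minus 8-cell difference were computed with Python 3.11.15, NumPy 2.4.6, pandas 2.3.3 and SciPy 1.17.1, over bins with at least 10 cells in both siRif1 groups; 46069 bins also had this in both siCont groups. The scripts were tested on simulated data with planted differences. Bins were called at 30 and 20 points. With 1 sample per group no test was run; intervals are exact 95% Clopper-Pearson. Genes were placed by their midpoint with RefSeq coordinates of GRCm38.p6; 19575 of 20665 autosomal protein-coding genes had a value. Promoter entries matched 81.9% of measured genes, with genes of chromosome 18 left out of the promoter comparison.

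The rule for named genes took the 5 windows of 1 Mb (10 or more used bins, no adjoining windows) of highest and the 5 of lowest siRif1 change, and likewise by the siRif1 minus siCont shift at the 8-cell stage, each with up to 3 of its longest genes. It also took the 2 highest and 2 lowest members of each list, and Rif1. Pou5f1, Sox2, Nanog, Cdx2, Lamc1, Pola2, Pold1 and Mcm3 fall outside that rule and were chosen after their values were seen, as were the per-cluster values. The members, the gene lists and the comparisons were chosen with earlier results of these data known. Vomeronasal receptors (205 of 352 measured, median −1.09 points) and 2-cell gene families (8 of 30, median −6.88 points) had under 80% of members measured and were not interpreted. Alternatives were cells of 20 to 80% replicated, cells paired on percent replicated, percentile ranks, scaling to a common SD, a minimum of 20 cells, 200-kb bins, gene bodies in place of midpoints, a control order from siCont 4-cell cells and, added after seeing the data, leaving out cells of over 1300 switches.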

Additional observations from a re-analysis of the deposited data

Results flagged for a closer look

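The median changes of 4 gene lists had opposite signs in siRif1 and siCont, and none of these differences was tested, since each group is 1 sample. They were Hox genes (−11.0 points in siRif1, 2.91 points in siCont), histone genes (−5.29 and 9.36 points), clustered protocadherins (4.38 and −1.31 points) and olfactory receptors (−1.42 and 0.495 points). Hox genes lay in 13 bins, histone genes in 17 and protocadherins in 11, so these medians rest on few places in the genome. Hox and histone genes kept a negative siRif1 median under the alternatives run, and the other 2 lists did not keep their sign.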

How the results depend on the processing

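No paired analysis was possible because the replicate numbers in the labels only number cells, and no result comes from a test. The early to late distance change in siRif1 (12.2 points) was 18.5 points with cells paired on percent replicated, 7.48 points with shares scaled to a common SD, 7.33 points with the siCont 4-cell order and 1.41 points without cells of over 1300 switches; at a limit of 1200 switches its sign turned, to −0.0677 points. The difference of the siRif1 from the siCont change (−0.943 points) turned to 9.42 points with paired cells, 8.74 points on ranks and 6.43 points with scaling, and was −6.49 points without cells of over 1300 switches. The change in the SD over bins (2.58 points) was 4.05 points with paired cells and turned to −0.920 points without those cells. The order score change (0.0648) was 0.0990 and 0.0160 under the same alternatives. The correlation of the siRif1 profiles (0.703) was 0.616 with paired cells.

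Bins 30 points or more earlier (1.23%) were 3.55% with paired cells, 9.83% on ranks, 3.19% with scaling and 6.84% at 20 points. Bins 30 points or more later (0.361%) were 0.576% in cells of 20 to 80% replicated, 1.71%, 8.31% and 1.66% under the same 3 settings, 0.701% without cells of over 1300 switches and 4.57% at 20 points. Delayed and advanced bins were chosen anew under each alternative. The median morula shift of delayed bins (−9.13 points) was −2.21 points on ranks and −2.27 points with scaling. That of advanced bins (12.5 points) was 2.23 and 1.52 points, and 6.33 points without cells of over 1300 switches. A minimum of 20 cells changed none of these values.

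Of list medians, the sign turned for long neuronal genes (0.677 points) and imprinted genes (−0.0986 points) without cells of over 1300 switches, for olfactory (0.991 points) and vomeronasal receptors (0.780 points) on ranks, and for protocadherins (−5.47 points) with paired cells. Of named genes it turned for H1f8 (−2.81 points) without cells of over 1300 switches and Pcdhb8 (−2.69 points) with paired cells; the other genes and windows named by the rule kept their direction under the alternatives run. Those named for their role (Pou5f1, Sox2, Nanog, Cdx2, Lamc1, Pola2, Pold1, Mcm3) and the Csmd2, Ebf1, Rapgef2 and Sspo windows were not rerun. The causes were not tested. With 45 and 50 cells, differences of a single bin below about its counting error were not detectable, and embryo, batch and stage cannot be told apart.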

Other observations

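Some windows changed by different amounts in siRif1 and siCont between the stages; they were chosen after their values were seen, and the differences were not tested. At 128 to 129 Mb of chromosome 4, with Csmd2, a large membrane protein, and the Polycomb gene Phc2, 10 of 50 siRif1 8-cell cells and 23 of 45 siRif1 morula cells had replicated most of the window, against 28 of 60 and 17 of 44 controls. The change was 22.9 points in siRif1 and −9.38 points in siCont. At 45 to 46 Mb of chromosome 11, the window of Ebf1, a B cell transcription factor, went from 18 of 49 to 26 of 45 siRif1 cells and from 35 of 60 to 18 of 44 control cells. At 79 to 80 Mb of chromosome 3, with Rapgef2, an exchange factor for Rap GTPases, the counts went from 29 of 50 to 20 of 45 in siRif1 and from 38 of 60 to 35 of 44 in controls. There the shift of siRif1 from controls was 8.34 points at the 8-cell stage and −30.5 points in the morula. At 48 to 49 Mb of chromosome 6, with Sspo and Zfp777, the counts went from 25 of 50 to 20 of 45 and from 33 of 60 to 33 of 43.

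Of 2328 windows, 4 were at least 10 points earlier in siRif1 and at least 10 points later in siCont, and 18 were the other way round. The windows 20 points or more earlier in siRif1 were 122 (5.24%), and those 20 points or more later were 66 (2.84%).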
